A study of Homo sapiens with 24 samples.

Results

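PF382 is an established human line from T-cell acute lymphoblastic leukemia, a cancer of thymocyte-stage cells. HH, from cutaneous T-cell lymphoma, and TLOm1, from adult T-cell leukemia, are established lines from cancers of mature T cells. The libraries compared were the 6 untreated ones of the 24 in the series, namely 2 of PF382 against 2 of HH and 2 of TLOm1. The other 18 libraries came from cells exposed to azacitidine or decitabine and were not used. Each line had 1 untreated library with the title prefix OLC and 1 with the prefix OC. These library sets are named below by their prefix, and values are given in the order OLC, OC. RNA was sequenced from cells in logarithmic growth, and all 6 libraries share that untreated state. Each group rests on lines and not on donors. PF382 alone stands for the immature stage, so what belongs to that stage and what belongs to that 1 line cannot be told apart.

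T cells develop in the thymus from precursors that rearrange their antigen receptor genes with the RAG1 and RAG2 recombinase and DNTT, which adds bases at the joins. At that stage they carry CD1 lipid-presenting proteins, respond to NOTCH1 signals and pair the first receptor chain with the pre-T alpha chain encoded by PTCRA. Mature activated T cells have shut that program off. In humans they carry costimulatory receptors of the TNF receptor family, chemokine receptors for skin and lymph node, and, when activated, MHC class II.

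Values are counts per 1000000 of the library total (CPM). Total counts were 22914158 and 15348774 in PF382, against 24315400 and 20120797 in HH and 24608889 and 21609812 in TLOm1. A count of 0 allows up to 3 counts, which is 0.122 to 0.195 CPM in these libraries and covers counting error only. Within each line the OLC and OC counts disagreed beyond counting error (chi-square over its degrees of freedom 36.2 in PF382, 35.8 in HH and 25.1 in TLOm1), so they stayed separate samples. In root mean square log2 difference over the tested genes, PF382 libraries lay 2.51 to 2.63 from HH and TLOm1 libraries, HH lay 1.93 to 2.01 from TLOm1, and libraries of the same line lay 0.502 to 0.593 apart. The 8 T-lineage markers summed to 1941 and 1777 CPM in PF382, against 853 and 819 in HH and 439 and 437 in TLOm1. Of these, CD2 and CD247 were lower in PF382 than in every HH and TLOm1 library, and CD5 lay between the lines. The 7 immature thymocyte markers summed to 1765 and 1903 CPM in PF382, against 0.165 and 0.248 in HH and 1.67 and 0.648 in TLOm1. The 7 markers of mature activated or helper T cells summed to 73.0 and 73.2 CPM in PF382, against 897 and 1012 in HH and 1288 and 1196 in TLOm1. CD4 made up most of that last sum, at up to 959 CPM. Of the 7, ICOS and FOXP3 were under 1 CPM in all 4 HH and TLOm1 libraries and above that in PF382. CD28 was also higher in PF382, at 18.8 and 28.0 CPM, against 1.69 and 2.44 in HH and 0.325 and 1.2 in TLOm1. CD4 and CCR4 were lower in PF382, so the set as a whole did not follow the labels.

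Of 25559 genes, 15501 passed the filter on low counts and were tested. PF382 had 1370 genes higher (8.84% of those tested) and 1289 lower (8.32%) at an adjusted p under 0.05, and 1100 and 1159 of them differed at least 2-fold. More than 8-fold differences made up 642 of the higher and 616 of the lower genes. Each called gene kept its direction against HH and against TLOm1 in both library sets. The median log2 fold change over all tested genes was −0.06 with TMM scaling, which also corrects for library composition, and 0.12 when libraries were scaled by their totals, as the printed CPM are. With that scaling, added after the data were seen, 1817 genes were higher and 1150 lower. Against HH alone PF382 had 5329 genes higher (34.4%) and 4964 lower (32.0%), and against TLOm1 alone 5253 higher (33.9%) and 5164 lower (33.3%). These 2 line contrasts share the PF382 libraries. In the comparison with both lines the difference between HH and TLOm1 counts as spread, and the common biological coefficient of variation was 0.673, beside 0.117 with the 3 lines kept apart. The counts rest on both PF382 libraries: without either one, 0 genes passed the threshold in edgeR, with 2409 to 2528 at an unadjusted p under 0.05. Without 1 of the HH or TLOm1 libraries, 395 to 527 were higher and 550 to 652 lower. The groups did not overlap in 27.7% of tested genes with PF382 above and in 24.9% with PF382 below, on the TMM scale.

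**Figure D1:**
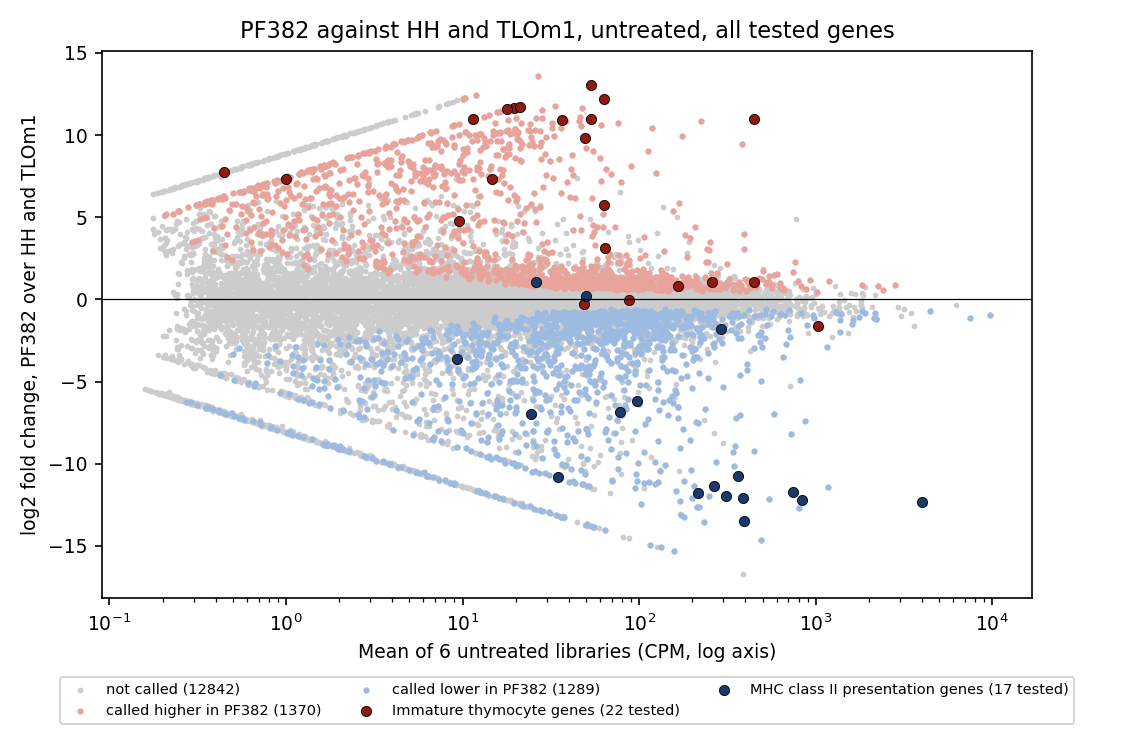
Log2 fold change of PF382 over HH and TLOm1 (vertical axis) against the mean of the 6 untreated libraries in CPM (horizontal log axis), with 1 point per tested gene. Of the points, 1370 were called higher and 1289 lower in PF382. Immature thymocyte genes lie mostly at the top and MHC class II presentation genes mostly at the bottom, and the slanted lines of points are genes with no count or few counts in a group.

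Of the 30 gene lists examined, which were chosen with earlier results of these data known, the immature thymocyte genes had the highest median. That rank is a description and not a test. The immature thymocyte markers summed above all belong to this list. Of 24 listed genes, 22 were tested, and 13 were higher and 1 lower in PF382, beside 8.84% and 8.32% of all tested genes. The median log2 fold change of the tested members was 7.54, or 7.33 with CD34, which had no count in HH or TLOm1, at its bound, beside −0.06 over all tested genes. The 13 became 8 without the OLC library of TLOm1 and 12 without any 1 of the other HH and TLOm1 libraries. RAG1, the cutting subunit of the recombinase, had 1268 and 1395 CPM in PF382, against 0.165 and 0.199 in HH and 1.42 and 0.602 in TLOm1. Its log2 fold change was 11.01 ± 1.03 (SE, adjusted p = 0.0099). RAG2, its partner, had 52.9 and 54.3 CPM in PF382, against 0 and 0 in HH and 0.0406 and 0 in TLOm1. That is a single count in 4 libraries, and the ratio was 4850.0 (95% counting interval 869 to 191652, adjusted p = 0.0084). DNTT had 3.58 and 2.35 CPM in PF382, against 0 and 0 in HH and 0 and 0.0463 in TLOm1 (adjusted p = 0.025). PTCRA, the pre-T alpha chain, had 37.4 and 31.4 CPM in PF382, against 0 and 0 in HH and 0.0406 and 0 in TLOm1 (adjusted p = 0.0091). For each of these genes the PF382 libraries lay above all 4 others.

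All 5 CD1 genes were higher in PF382. They encode proteins that present lipids to T cells and lie next to one another on chromosome 1. CD1A had 186 and 192 CPM in PF382, against 0 and 0 in HH and 0.122 and 0 in TLOm1. CD1B had 151 and 168 CPM in PF382, with 1 count in all of HH and TLOm1, and its ratio was 14303 (95% counting interval 2566 to 565040). CD1C had 104 and 116 CPM in PF382, against 0 and 0 in HH and 0.203 and 0 in TLOm1. CD1D and CD1E stood at 55.4 to 66.7 CPM in PF382, with 1 count each in HH and TLOm1 together. The adjusted p of the CD1 genes lay between 0.0051 and 0.015. ARPP21, an RNA-binding protein of immature thymocytes, had 167 and 154 CPM in PF382, against 0.0411 and 0.0497 in HH and 0.122 and 0.0463 in TLOm1, with a log2 fold change of 10.99 ± 0.40 (SE, adjusted p = 0.0045). CCR9, the receptor for the thymic and gut chemokine CCL25, had 147 and 149 CPM in PF382, against 0 and 0 in HH and 0.203 and 0.370 in TLOm1. ELOVL4, an enzyme that lengthens fatty acids, differed less, at 131 and 190 CPM in PF382, against 14.7 and 23.2 in HH and 12.2 and 13.4 in TLOm1.

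The rest of the list did not pass or went the other way. TFRC, the transferrin receptor, was lower in PF382, with 431 and 528 CPM, against 1081 and 917 in HH and 1371 and 1829 in TLOm1 (log2 fold change −1.62 ± 0.33 SE, adjusted p = 0.040), and it did not pass when libraries were scaled by their totals, or without the OLC library of HH or either library of TLOm1. Some genes were shared with 1 mature line. TOX, a chromatin protein of developing T cells, had 228 and 269 CPM in PF382, against 204 and 267 in HH and 18.1 and 14.4 in TLOm1. AQP3, a glycerol channel, had 92.7 and 87.5 CPM in PF382, against 7.94 and 8.0 in HH and 119 and 210 in TLOm1. SATB1, a genome organizer of thymocytes, had 183 and 184 CPM in PF382, against 0.452 and 0.199 in HH and 6.30 and 5.41 in TLOm1, and its adjusted p was 0.068. CD34, a progenitor antigen, had 1.31 and 1.37 CPM in PF382 and no count in HH or TLOm1, which makes it at least 40.3-fold higher (adjusted p = 0.12). SOX4, ADA, CD38 and TOX2 did not pass either. MME and CD99 were too low to test, with at most 0.0873 CPM in any library. CD99 has copies on X and Y, so its count is uncertain.

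**Figure D2:**
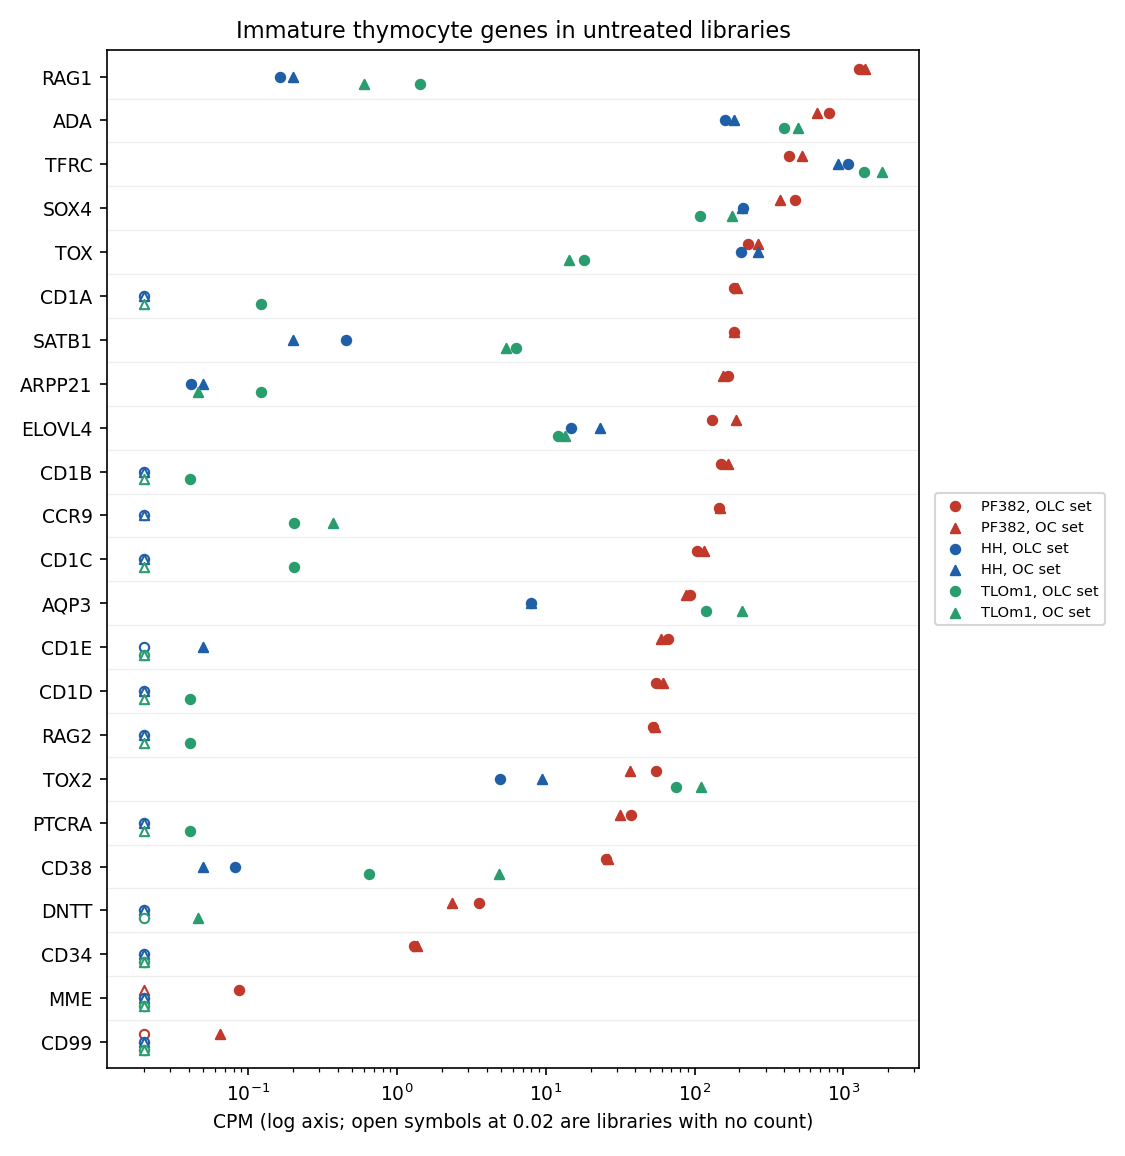
CPM (horizontal log axis) of 23 of the listed immature thymocyte genes in each untreated library, with circles for the OLC set and triangles for the OC set. Open symbols mark libraries with no count. From RAG1 at 1268 and 1395 CPM downward, 17 of the 21 tested genes shown have both PF382 libraries above all 4 HH and TLOm1 libraries, beside 27.7% of all tested genes.

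Very low values were not spread evenly over the libraries. The 244 genes called higher that had 1 to 3 counts in HH and TLOm1 together held 394 such counts, of which 57.1% came from the OLC library of TLOm1, which holds 27.1% of the total count of those 4 libraries. The part of that library in single counts such as those of RAG2, PTCRA and CD1B was not tested. Genes with no count at all in HH and TLOm1 were called in 5 of 219 cases, and genes with no count in PF382 in 103 of 518. KIT, the stem cell factor receptor, is a case of the first kind, at 6.07 and 7.30 CPM in PF382, at least 198-fold higher, with an adjusted p of 0.074.

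Promoters of this program are shown because the series tests drugs that act on methylation of CG sites, while methylation itself was not measured. The sequences are from RefSeq (GRCh38.p14), each the 250 bases before the gene's start, 5′ to 3′, with every CG dinucleotide in capitals. RAG2 lies at chr11:36598237-36598486 (minus strand), CD1D at chr1:158179697-158179946 (plus strand) and ARPP21 at chr3:35639275-35639524 (plus strand).
RAG2: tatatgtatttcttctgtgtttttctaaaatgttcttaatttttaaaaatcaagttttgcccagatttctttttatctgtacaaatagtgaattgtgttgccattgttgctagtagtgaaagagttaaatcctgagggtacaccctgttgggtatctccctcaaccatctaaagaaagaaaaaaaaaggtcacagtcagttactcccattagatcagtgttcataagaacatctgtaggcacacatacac
CD1D: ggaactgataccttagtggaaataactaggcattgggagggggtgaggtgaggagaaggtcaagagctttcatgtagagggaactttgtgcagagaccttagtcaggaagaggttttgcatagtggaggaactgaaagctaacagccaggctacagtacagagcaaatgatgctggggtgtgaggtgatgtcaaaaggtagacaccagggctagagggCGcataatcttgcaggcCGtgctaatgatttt
ARPP21: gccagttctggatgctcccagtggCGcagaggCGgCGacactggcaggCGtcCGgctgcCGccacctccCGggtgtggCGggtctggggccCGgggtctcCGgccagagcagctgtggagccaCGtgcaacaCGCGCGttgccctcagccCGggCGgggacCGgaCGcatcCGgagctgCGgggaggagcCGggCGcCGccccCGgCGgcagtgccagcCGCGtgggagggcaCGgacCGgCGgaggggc
RAG2 has no CG in this window, CD1D has 2 and ARPP21 has 30. All 3 genes were at or under 0.122 CPM in HH and TLOm1, and any link of CG content to those values was not tested. The ratio of observed to expected CG was 0 in RAG2, 0.163 in CD1D and 0.807 in ARPP21, beside a median of 0.558 over all 35116 promoters. Of the 13 immature genes called higher, 11 had a promoter in the table, and their median ratio was 0.223. The E-box CAGCTG or CAGGTG, the kind of site that TAL1 and E proteins bind, was found on either strand in 63.6% of those 11 promoters and in 28.7% of all promoters. The GATA motif AGATAA was found in 36.4%, against 9.17% of all promoters, the RUNX motif TGTGGT in 18.2%, against 11%, and the TCF/LEF motif CTTTGA in 0%, against 11.2%. RAG2 holds 1 GATA match on the opposite strand. These matches are a description of letters and not of binding. Among all genes called higher that had a promoter, the E-box was found in 26.7% and the GATA motif in 4.95%. Over all tested genes the shares were 26.3% and 4.84%. The RUNX motif was found in 6.79%, beside 8.06%, and the TCF/LEF motif in 8.05%, beside 7.87%. Fewer than 80% of tested genes had a promoter in the table, so these shares cover only part of them. The 11 promoters are few, and no conclusion is drawn from them.

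Among genes that drive T-cell leukemia, PF382 carried TAL1 and LMO2. TAL1, a basic helix-loop-helix factor of blood stem cells that is normally off in T cells, had 81.5 and 78.1 CPM in PF382 and no count in any HH or TLOm1 library. That makes it at least 2421-fold higher (adjusted p = 0.030). LMO2, the bridging protein that works in a complex with TAL1, had 25.7 and 26.7 CPM in PF382, against 0 and 0.0994 in HH and 0 and 0 in TLOm1. The ratio was 1185 (95% counting interval 327 to 9795, adjusted p = 0.018). LYL1, a close relative of TAL1, went the other way, with 0.0436 and 0.0652 CPM in PF382, against 4.85 and 2.68 in HH and 5.36 and 2.64 in TLOm1 (adjusted p = 0.012). MEF2C, a MADS-box factor of early precursors and B cells, had 0.0873 and 0 CPM in PF382, against 96.1 and 118 in HH and 103 and 102 in TLOm1 (adjusted p = 0.0071). The list of 25 T-cell leukemia oncogenes had 14 tested members, of which 3 were higher (TAL1, LMO2, PHF6) and 3 lower (LYL1, MEF2C, NKX2-5). That is 21.4% each way, beside 8.84% and 8.32% of all tested genes. Without 1 HH or TLOm1 library, 1 to 2 were higher. TLX1, TLX3, LMO1, LMO3, OLIG2, NKX2-1, TAL2 and the listed HOXA genes were too low to test. MYC had 380 and 407 CPM in PF382, against 441 and 448 in HH and 173 and 155 in TLOm1, and did not pass.

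Of 13 tested stem and progenitor genes, 2 were higher (LMO2, BCL11A) and 2 lower (LYL1, MEF2C) in edgeR. The shares were 15.4% each way, beside 8.84% and 8.32% of all tested genes. DESeq2 called 6 higher and 5 lower, and limma-voom 6 and 2. In 7 of the 13 PF382 lay above all 4 others and in 5 below, beside 27.7% and 24.9% of all tested genes. BCL11A, a zinc finger repressor of lymphoid precursors, was among the higher ones, with 76.2 and 79.7 CPM in PF382, against 0 and 0 in HH and 0.122 and 0 in TLOm1 (adjusted p = 0.012). Among HOX cluster genes edgeR called 0 higher and 3 lower of 19 tested, and 1 to 2 lower without 1 HH or TLOm1 library. The 3 are 15.8% of the list, beside 8.32% of all tested genes. At an unadjusted p under 0.05 in edgeR 1 was higher, and DESeq2 called 0 higher and limma-voom 1. HOXB9 had 0.175 and 0 CPM in PF382, against 115 and 118 in HH and 175 and 170 in TLOm1 (adjusted p = 0.0095). HOXB8 had no count in PF382 and 7.07 to 16.5 CPM in the 4 others.

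NOTCH pathway genes had 9 of 26 tested members higher and 3 lower, with a median log2 fold change of 0.34. These are 34.6% and 11.5% of the list, beside 8.84% and 8.32% of all tested genes. The 9 became 3 to 5 without 1 HH or TLOm1 library. NOTCH1, the receptor that commits precursors to the T lineage, had 572 and 450 CPM in PF382, against 22.2 and 15.9 in HH and 56.3 and 42.5 in TLOm1 (log2 fold change 3.73 ± 0.54 SE, adjusted p = 0.021). NOTCH3 had 448 and 293 CPM in PF382, against 0.247 and 0.0497 in HH and 2.32 and 3.93 in TLOm1 (adjusted p = 0.044). Known targets were among those that passed. HES4, a repressor, had 71.8 and 32.4 CPM in PF382, against 0.206 and 0.0994 in HH and 0.163 and 0 in TLOm1 (adjusted p = 0.010). HES1 had 33.4 and 27.6 CPM in PF382, against 0 and 0 in HH and 0.244 and 0.139 in TLOm1. DTX1, a ubiquitin ligase, had 217 and 148 CPM in PF382, against 0 and 0 in HH and 0.569 and 0 in TLOm1. The mature lines had more of other parts of the pathway. NOTCH2 had 71.5 and 68.8 CPM in PF382, against 238 and 285 in HH and 261 and 271 in TLOm1. MAML2, a coactivator, had 0.786 and 0.717 CPM in PF382, against 35.6 and 57.6 in HH and 45.1 and 44.7 in TLOm1. LFNG, which adds sugars to NOTCH receptors, had 1 count in each PF382 library.

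The antigen receptor itself split by chain and coreceptor. Of the 15 genes of the receptor complex and coreceptors, 7 were higher and 4 lower in PF382. These are 46.7% and 26.7% of the list, beside 8.84% and 8.32% of all tested genes. Without 1 HH or TLOm1 library, 3 to 5 were higher. CD3E had 602 and 624 CPM in PF382, against 80.9 and 120 in HH and 39.9 and 33.5 in TLOm1 (log2 fold change 2.99 ± 0.60 SE, adjusted p = 0.038). CD3D was near 0 in TLOm1 and not in HH, with 352 and 334 CPM in PF382, against 31.5 and 43.0 in HH and 0.731 and 0.0463 in TLOm1. CD3G showed the same order, and neither passed the test. CD247, the zeta chain, was lower in PF382, with 65.9 and 50.6 CPM, against 129 and 105 in HH and 141 and 132 in TLOm1 (adjusted p = 0.016). The coreceptors went opposite ways. CD8A had 21.2 and 26.1 CPM in PF382, against 0.165 and 0.248 in HH and 0.163 and 0 in TLOm1 (adjusted p = 0.025), and CD8B was higher as well. CD4 had 31.7 and 20.8 CPM in PF382, against 563 and 520 in HH and 959 and 838 in TLOm1 (log2 fold change −4.97 ± 0.43 SE, adjusted p = 0.0087).

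CD2 and its ligand CD58, an adhesion pair, were both lower in PF382. CD2 had 5.59 and 5.93 CPM in PF382, against 171 and 247 in HH and 255 and 270 in TLOm1 (log2 fold change −5.52 ± 0.28 SE). CD58 had 4.10 and 4.50 CPM in PF382, against 95.8 and 144 in HH and 113 and 156 in TLOm1 (log2 fold change −5.04 ± 0.23 SE). The adjusted p of each was 0.0045. CD7, an early T-lineage antigen, had 34.5 and 24.6 CPM in PF382, against 0.0823 and 0.0994 in HH and 0.244 and 0.0463 in TLOm1 (adjusted p = 0.0081). TRAT1, an adapter of the receptor complex, had 48.7 and 69.7 CPM in PF382, and at most 0.206 in any other library. CD28 was also higher in PF382. CD5 followed the lines and not the stage, with 52.0 and 40.3 CPM in PF382, against 423 and 281 in HH and 0.447 and 0.463 in TLOm1. The promoters of CD2 at chr1:116754180-116754429 (plus strand) and of CD58 at chr1:116571027-116571276 (minus strand), are shown in the same way because both genes of the pair were lower and lie near each other on chromosome 1.
CD2: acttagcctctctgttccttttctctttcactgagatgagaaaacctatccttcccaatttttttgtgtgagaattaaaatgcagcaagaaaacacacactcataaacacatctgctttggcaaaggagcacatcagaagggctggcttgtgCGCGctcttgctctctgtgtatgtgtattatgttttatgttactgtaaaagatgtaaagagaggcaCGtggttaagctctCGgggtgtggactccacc
CD58: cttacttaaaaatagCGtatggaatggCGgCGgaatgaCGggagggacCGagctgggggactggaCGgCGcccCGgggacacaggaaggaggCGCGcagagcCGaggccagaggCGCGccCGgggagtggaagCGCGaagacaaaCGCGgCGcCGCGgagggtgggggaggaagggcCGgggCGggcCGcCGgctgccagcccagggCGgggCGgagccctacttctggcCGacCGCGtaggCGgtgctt
They differ widely in CG, with 4 in CD2 and 31 in CD58, and observed to expected ratios of 0.349 and 1.03. None of the same 4 motifs (RUNX, E-box, TCF/LEF and GATA) is in either window, on either strand.

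Proximal signaling genes had 14 of 37 tested genes higher and 2 lower, and a median log2 fold change of 1.25. These are 37.8% and 5.41% of the list, beside 8.84% and 8.32% of all tested genes. Without 1 HH or TLOm1 library, 10 to 11 were higher and 0 to 1 lower, and DESeq2 called 17 higher and 7 lower. LCK, the kinase that starts receptor signaling, had 748 and 589 CPM in PF382, against 0 and 0.248 in HH and 1.34 and 0 in TLOm1 (log2 fold change 10.85 ± 1.68 SE, adjusted p = 0.023). LCP2, the adapter SLP-76, had 159 and 158 CPM in PF382, against 1.97 and 3.83 in HH and 1.26 and 0.926 in TLOm1 (adjusted p = 0.012). LAT, the adapter it works with, had 214 and 180 CPM in PF382, against 23.2 and 20.7 in HH and 32.3 and 31.6 in TLOm1. ZAP70 differed about as little as any that passed, with 304 and 255 CPM in PF382, against 135 and 118 in HH and 107 and 134 in TLOm1 (log2 fold change 1.0 ± 0.17 SE, adjusted p = 0.028). NFATC1, a transcription factor that the pathway switches on, had 126 and 60.1 CPM in PF382, and at most 0.398 in any other library.

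T-lineage specification factors had 0 of 23 tested genes higher and 3 lower in edgeR, and a median log2 fold change of 1.04. Of the 23, 4 were higher at an unadjusted p under 0.05, 5 with DESeq2 and 3 with limma-voom, and 1 to 2 were lower without 1 HH or TLOm1 library. TCF7, which opens the T-lineage program, had 2536 and 1821 CPM in PF382, against 117 and 140 in HH and 3.45 and 0.185 in TLOm1 (adjusted p = 0.21). All 4 of the other libraries lay below both of PF382, but HH and TLOm1 differed from each other. BCL11B did not pass either, with 323 and 262 CPM in PF382, against 105 and 90.5 in HH and 43.2 and 34.3 in TLOm1. The lower ones were FOXO1, RUNX2 and IKZF3. FOXO1, a factor of quiescent and homing T cells, had 1.31 and 0.847 CPM in PF382, against 30.3 and 36.5 in HH and 22 and 30.7 in TLOm1 (adjusted p = 0.0091).

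Factors of helper and regulatory T cells were lower in 7 of 21 tested genes and higher in 3, and lower in 4 without any 1 HH or TLOm1 library. With all 6 libraries the shares were 33.3% lower and 14.3% higher, beside 8.32% and 8.84% of all tested genes. IRF4, a factor of activated T cells, had 0.349 and 0 CPM in PF382, against 977 and 1272 in HH and 1066 and 1494 in TLOm1 (log2 fold change −12.72 ± 1.21 SE, adjusted p = 0.010). RUNX3 had 11.7 and 9.06 CPM in PF382, against 248 and 238 in HH and 266 and 263 in TLOm1, with a small spread within each line (log2 fold change −4.79 ± 0.20 SE, adjusted p = 0.0045). BATF3 had 5.85 and 3.84 CPM in PF382, against 155 and 144 in HH and 270 and 190 in TLOm1. BCL6, the repressor of follicular helper cells, was higher in PF382, with 21.3 and 15.6 CPM, against 1.93 and 1.24 in HH and 1.42 and 1.76 in TLOm1 (adjusted p = 0.012).

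Of the 30 lists, chosen with earlier results known, MHC class II presentation genes had the lowest median, a rank that is likewise a description. Of 17 listed genes, all were tested, 14 were lower and 0 higher, with a median log2 fold change of −10.8. The 14 are 82.4% of the list, beside 8.32% of all tested genes. They became 8 without the OLC library of TLOm1, and DESeq2 called 15 lower and limma-voom 10. Beside that 0, at an unadjusted p under 0.05 RFXAP was higher, and DESeq2 and limma-voom each called 1 member higher. CIITA, the coactivator that turns class II genes on, had 0.0873 and 0 CPM in PF382, against 369 and 434 in HH and 710 and 830 in TLOm1. The 4 libraries of the mature lines exceeded PF382 by a ratio of 11206 (95% counting interval 3102 to 92536, adjusted p = 0.0081). CD74, the invariant chain that chaperones class II, had 2.84 and 0.195 CPM in PF382, against 3285 and 4376 in HH and 7636 and 8540 in TLOm1 (log2 fold change −12.33 ± 1.65 SE, adjusted p = 0.018). HLA-DRA had 0.567 and 0 CPM in PF382, against 535 and 861 in HH and 1703 and 1918 in TLOm1. HLA-DPA1 had 0.567 and 0.130 CPM in PF382, against 437 and 614 in HH and 559 and 580 in TLOm1. The peptide loader HLA-DMA had 1.22 and 1.04 CPM in PF382, against 82.4 and 105 in HH and 133 and 145 in TLOm1.

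The DNA-binding subunits that recruit CIITA were present in every line. RFX5 was lower in PF382, with 124 and 119 CPM, against 279 and 322 in HH and 415 and 496 in TLOm1 (adjusted p = 0.025). RFXAP had 34.7 and 50.7 CPM in PF382, against 19.3 and 22 in HH and 13.2 and 16.4 in TLOm1, and RFXANK had 64.6 and 53.1 CPM in PF382, against 51.3 and 43.1 in HH and 43.6 and 42.5 in TLOm1. Neither passed the test, though RFXAP did when libraries were scaled by their totals. HLA-DR, DQ and DP genes resemble one another and vary between people, so single genes are uncertain where the counting could split reads between them.

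**Figure D3:**
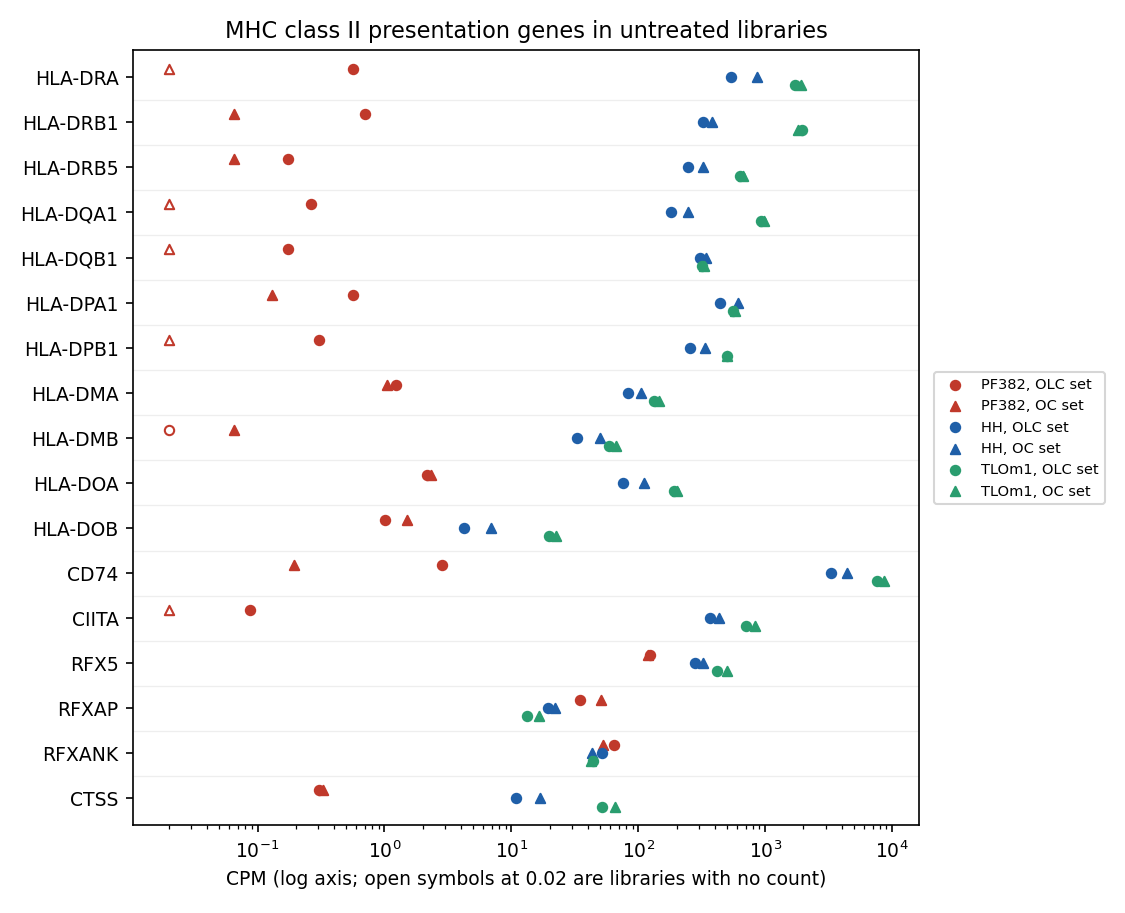
CPM (horizontal log axis) of the 17 MHC class II presentation genes in each untreated library, with circles for the OLC set, triangles for the OC set and open symbols for libraries with no count. HLA-DRA to HLA-DPB1, CD74 and CIITA lie at or below 2.84 CPM in PF382 and far higher in HH and TLOm1, while RFX5, RFXAP and RFXANK lie between 13.2 and 496 CPM in all 6 libraries.

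Class I presentation followed at a smaller size, with 7 of 18 tested genes lower and 1 higher and a median log2 fold change of −1.52. The shares were 38.9% lower and 5.56% higher, beside 8.32% and 8.84% of all tested genes. The 7 became 2 to 4 without 1 HH or TLOm1 library. HLA-B had 56.7 and 33.7 CPM in PF382, against 1423 and 1863 in HH and 767 and 767 in TLOm1 (log2 fold change −4.93 ± 0.70 SE, adjusted p = 0.020). TAP1, a subunit of the peptide pump, had 43.9 and 37.2 CPM in PF382, against 265 and 271 in HH and 269 and 278 in TLOm1 (log2 fold change −2.92 ± 0.16 SE, adjusted p = 0.0048). B2M, the common light chain, lay below every other library at 505 and 615 CPM in PF382, against 1007 and 1523 in HH and 2519 and 2991 in TLOm1, and did not pass. ERAP2, a peptide-trimming enzyme, was the higher one, with 131 and 155 CPM in PF382, against 11.2 and 15.6 in HH and 11 and 12.3 in TLOm1.

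NF-kB and TNF receptor genes were lower in 16 of 36 tested members and higher in 2, with a median log2 fold change of −2.55. The shares were 44.4% lower and 5.56% higher, beside 8.32% and 8.84% of all tested genes. TRAF1, an adapter and target of the pathway, had 6.76 and 2.02 CPM in PF382, against 1046 and 1329 in HH and 900 and 1068 in TLOm1 (log2 fold change −8.21 ± 0.78 SE, adjusted p = 0.010). RELB, a subunit of the noncanonical arm, had 3.45 and 3.19 CPM in PF382, against 63.1 and 51.5 in HH and 59.4 and 67.9 in TLOm1 (log2 fold change −4.36 ± 0.23 SE). NFKB2, its partner, had 38.4 and 16.3 CPM in PF382, against 479 and 428 in HH and 636 and 627 in TLOm1. The inhibitor NFKBIA had 44.3 and 37.3 CPM in PF382, against 474 and 379 in HH and 258 and 278 in TLOm1. The TNF receptors split. TNFRSF1A had 42.5 and 33.1 CPM in PF382, against 0.0823 and 0.149 in HH and 0.244 and 0.185 in TLOm1 (adjusted p = 0.0068). TNFRSF1B had 0.305 and 0.261 CPM in PF382, against 282 and 241 in HH and 56.7 and 58.3 in TLOm1 (adjusted p = 0.024). The number of lower members was 10 without any single HH or TLOm1 library.

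Costimulatory and checkpoint receptors were higher in 4 (18.2%) and lower in 5 (22.7%) of 22 tested genes, beside 8.84% and 8.32% of all tested genes. Without 1 HH or TLOm1 library 1 to 2 were higher and 3 to 4 lower. The median log2 fold change of the list was −4.52, or −3.18 with genes that had no count in a group at their bounds. PF382 lay above all 4 others in 5 and below in 13, beside 27.7% and 24.9% of all tested genes, and DESeq2 called 5 higher and 11 lower. TNFRSF8, the CD30 antigen of activated T cells, had 10.5 and 7.36 CPM in PF382, against 1302 and 1290 in HH and 1443 and 1180 in TLOm1 (log2 fold change −7.38 ± 0.23 SE, adjusted p = 0.0045). CD70 had 0.131 and 0 CPM in PF382, against 161 and 115 in HH and 200 and 161 in TLOm1. ICOS, a CD28 relative, had 17.6 and 19.5 CPM in PF382, and at most 0.0926 in the other libraries (adjusted p = 0.014). CD40LG, the helper signal to B cells, had 3.01 and 2.28 CPM in PF382, with 1 count in HH and TLOm1 together.

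Chemokine and homing receptors were higher in 4 and lower in 7 of 27 tested genes, and in 2 to 3 and 4 to 6 without 1 HH or TLOm1 library. With all 6 libraries the shares were 14.8% and 25.9%, beside 8.84% and 8.32% of all tested genes. CCR4, a skin-homing receptor, had 1 count in each PF382 library, against 331 and 489 CPM in HH and 92.9 and 116 in TLOm1 (adjusted p = 0.016). CCR7, which guides cells to lymph nodes, had 1.57 and 0.847 CPM in PF382, against 260 and 308 in HH and 760 and 760 in TLOm1 (adjusted p = 0.013). The integrin chains differed in direction. ITGB2, the common chain of the leukocyte integrins, had 184 and 142 CPM in PF382, against 0.165 and 0.199 in HH and 0.650 and 0.139 in TLOm1 (adjusted p = 0.0071). ITGB7, the gut-homing chain, had 3.05 and 2.08 CPM in PF382, against 102 and 98.9 in HH and 89.9 and 77.3 in TLOm1 (adjusted p = 0.0045). CXCR4, the receptor for the stromal chemokine CXCL12, had 481 and 481 CPM in PF382, against 151 and 190 in HH and 92.3 and 132 in TLOm1 (adjusted p = 0.032).

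Cytokine receptors, JAK, STAT and SOCS genes were lower in 6 and higher in 1 of 31 tested genes, and lower in 3 to 6 without 1 HH or TLOm1 library. With all 6 libraries the shares were 19.4% lower and 3.23% higher, beside 8.32% and 8.84% of all tested genes. IL21R had 0.83 and 0.85 CPM in PF382, against 117 and 161 in HH and 397 and 491 in TLOm1 (adjusted p = 0.016). JAK3, the kinase of the common gamma chain, had 39.8 and 38.8 CPM in PF382, against 104 and 126 in HH and 168 and 184 in TLOm1 (adjusted p = 0.022). STAT3 was the higher gene, with 219 and 152 CPM in PF382, against 33.4 and 31.4 in HH and 32.2 and 51.6 in TLOm1 (adjusted p = 0.020). IL2RA, the high-affinity interleukin 2 receptor chain, had 0.0873 and 0.0652 CPM in PF382, against 0.740 and 0.0497 in HH and 234 and 240 in TLOm1, and it did not pass. Of 13 tested cytokine genes, 1 was higher and 2 lower in edgeR, 2 and 10 with DESeq2 and 2 and 3 with limma-voom, and the median log2 fold change was −5.49. In edgeR the shares were 7.69% and 15.4%, beside 8.84% and 8.32% of all tested genes. PF382 lay below all 4 others in 10 of the 13 and above in 2, beside 24.9% and 27.7% of all tested genes, and 0 to 2 were called lower without 1 HH or TLOm1 library. LTB, a ligand of the lymphotoxin beta receptor, had 73.1 and 57.6 CPM in PF382 and at most 0.149 in the other libraries (adjusted p = 0.012).

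Cytoskeleton and integrin genes of activated T cells were lower in 16 of 27 tested members and higher in 2, with a median log2 fold change of −2.87. The shares were 59.3% lower and 7.41% higher, beside 8.32% and 8.84% of all tested genes. LMNA, the lamin of stiff nuclei, had 2.23 and 0.586 CPM in PF382, against 837 and 586 in HH and 663 and 593 in TLOm1 (log2 fold change −9.20 ± 0.61 SE, adjusted p = 0.0068). S100A6, a calcium-binding protein, had 0.349 and 0.130 CPM in PF382, against 269 and 265 in HH and 349 and 294 in TLOm1 (log2 fold change −10.38 ± 0.47 SE). LGALS1, galectin-1, had 0.960 and 0.130 CPM in PF382, against 316 and 384 in HH and 737 and 637 in TLOm1. TAGLN2, an actin-binding protein, differed less, with 126 and 123 CPM in PF382, against 708 and 692 in HH and 634 and 603 in TLOm1. Cytotoxic and NK receptor genes had 0 called either way of 11 tested in edgeR (4 higher and 0 lower at an unadjusted p under 0.05, 3 and 1 with DESeq2, 4 and 0 with limma-voom), with 15 of 26 listed genes too low to test.

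**Figure D4:**
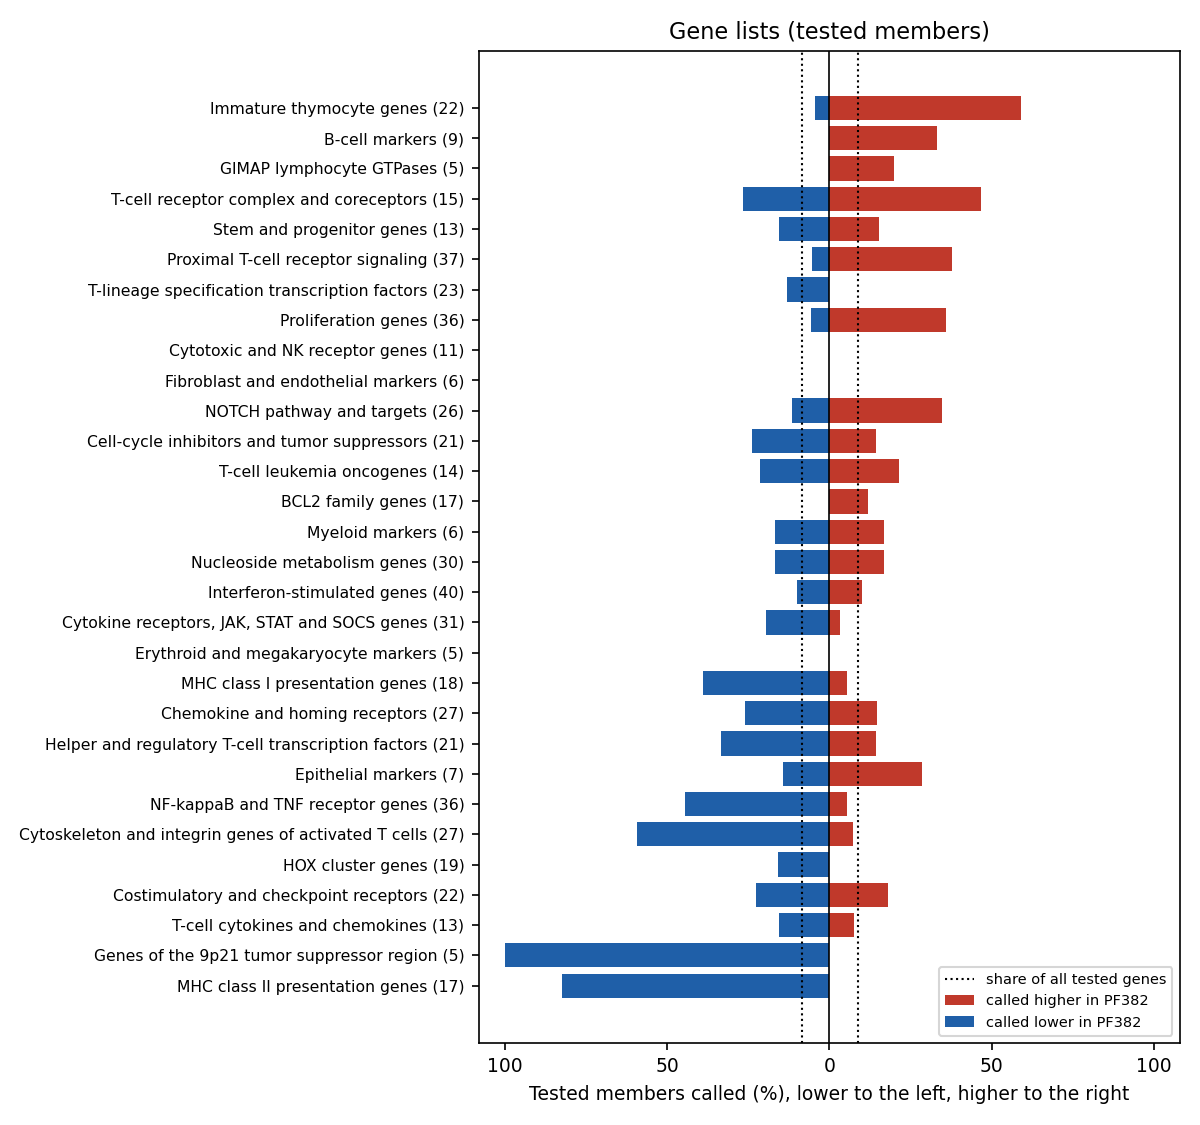
Percent of tested members called higher (bars to the right) and lower (bars to the left) in PF382 against HH and TLOm1 in each of 30 gene lists, with the number tested in brackets and dotted lines at the shares over all tested genes, 8.84% and 8.32%. Immature thymocyte genes have 59.1% called higher, and MHC class II presentation genes have 82.4% called lower. The lists were chosen with earlier results of these data known.

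Proliferation genes were called higher more often than lower in PF382, and the G1 cyclins went opposite ways. Of 36 proliferation genes, 13 were higher and 2 lower, with a median log2 fold change of 0.67. These are 36.1% and 5.56% of the list, beside 8.84% and 8.32% of all tested genes. The 13 became 3 to 7 without 1 HH or TLOm1 library. MKI67 had 1622 and 1479 CPM in PF382, against 638 and 636 in HH and 642 and 527 in TLOm1 (log2 fold change 1.16 ± 0.13 SE, adjusted p = 0.013). PCNA, the sliding clamp of replication, had 635 and 719 CPM in PF382, against 273 and 300 in HH and 287 and 267 in TLOm1. CCND3, the cyclin that immature thymocytes depend on in mice, had 719 and 432 CPM in PF382, against 18.5 and 11.7 in HH and 40.0 and 25.0 in TLOm1 (log2 fold change 4.42 ± 0.45 SE, adjusted p = 0.012). CCND2 had 0.218 and 0 CPM in PF382, against 202 and 224 in HH and 321 and 483 in TLOm1 (log2 fold change −11.35 ± 1.23 SE, adjusted p = 0.012). The retinoblastoma gene RB1 had 484 and 590 CPM in PF382, against 79.5 and 83.3 in HH and 101 and 132 in TLOm1 (adjusted p = 0.011). CDKN2C, the p18 inhibitor of CDK4 and CDK6, had 169 and 137 CPM in PF382, against 9.71 and 6.36 in HH and 5.93 and 2.08 in TLOm1 (adjusted p = 0.014).

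The related inhibitors CDKN2A and CDKN2B were at the floor in PF382, along with their neighbours. CDKN2A, which encodes p16 and ARF, had 0.0873 and 0 CPM in PF382, against 114 and 65.1 in HH and 64.6 and 52.1 in TLOm1. The ratio of the mature lines over PF382 was 1434 (95% counting interval 397 to 11842, adjusted p = 0.0081). MTAP, the methylthioadenosine enzyme next to it, had 0.0873 and 0 CPM in PF382, against 83.8 and 96.5 in HH and 107 and 134 in TLOm1. CDKN2B, which encodes p15, had no count in PF382, against 5.51 and 4.47 CPM in HH and 2.56 and 4.44 in TLOm1, which makes it at least 53.9-fold lower. All 5 tested genes of the listed 9p21 region were lower, beside 8.32% of all tested genes. The 5 became 3 without any 1 HH or TLOm1 library. In gene order they belong to a run of 8 tested neighbours on chromosome 9, from MLLT3 through KIAA1797, PTPLAD2, KLHL9, MTAP, CDKN2A and CDKN2B-AS to CDKN2B, each with 0 to 2 counts in PF382 in all. KLHL9, an adapter for a ubiquitin ligase, had no count in PF382, against 43.4 and 52.1 CPM in HH and 51.0 and 70.5 in TLOm1, and was at least 687-fold lower. CDKN2A and CDKN2B-AS overlap on opposite strands, and whether the counting used strand is not given in the sources used here. DNA copy number was not measured.

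**Figure D5:**
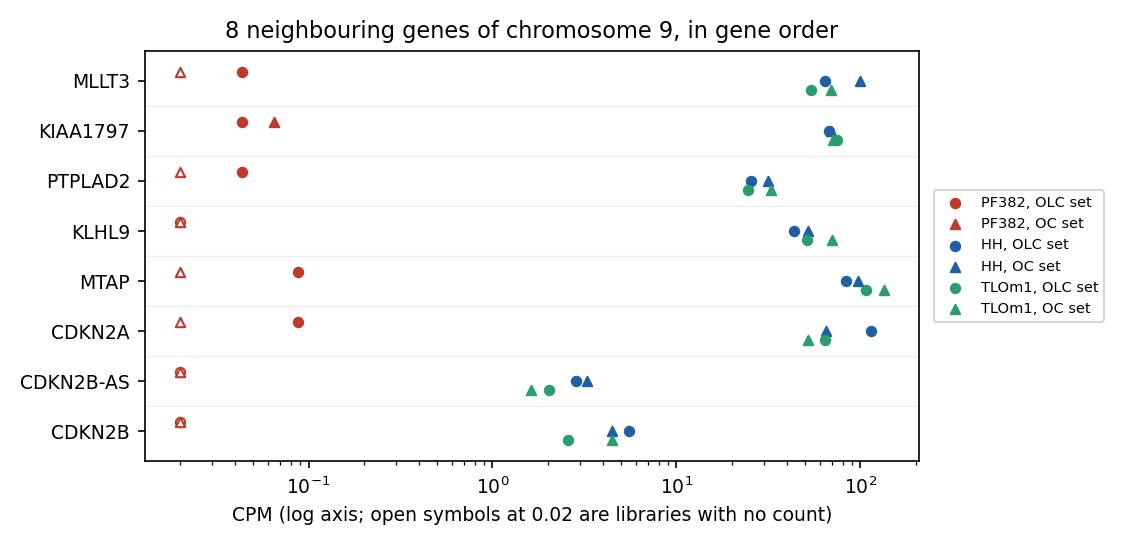
CPM (horizontal log axis) of 8 neighbouring tested genes of chromosome 9 in each untreated library, top to bottom in gene order, with circles for the OLC set, triangles for the OC set and open symbols for libraries with no count. All PF382 values are at or below 0.0873 CPM, and all HH and TLOm1 values are at or above 1.62 CPM.

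This run was the longest of 19 runs of at least 4 neighbouring tested genes called the same way, which held 96 genes, 11 runs being higher and 8 lower. For gene order, 14096 of 15501 tested genes matched the RefSeq table. The CD1 genes made a run of 6 on chromosome 1 with KIRREL, a cell adhesion gene that had 90.2 and 77.8 CPM in PF382, against 0 and 0 in HH and 0.0813 and 0 in TLOm1. A lower run of 7 on the same chromosome ended in TNFRSF8 and TNFRSF1B. Runs made up mostly of zinc finger genes were higher, with 6 genes on chromosomes 16 and 19 and 4 on chromosome 7. On chromosome 19, ZNF43 had 53.5 and 90.9 CPM in PF382, against 0 and 0.0497 in HH and 0.0813 and 0 in TLOm1. These genes resemble one another, which makes single values uncertain. On X, a cluster of BEX and TCEAL genes, small proteins known mainly from neurons, gave runs of 5 and 4, and BEX1 had 129 and 145 CPM in PF382, against 0 and 0 in HH and 0.203 and 0.0463 in TLOm1. By chromosome, the share called higher reached 19.0% on chromosome 16, 15.6% on 20 and 15.1% on 18, and the share called lower reached 12.6% on 9 and was least on 15, at 2.17%.

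The naming rule took the 14 largest fitted fold changes each way. Most of these genes had 0 to 3 counts in the lower group, where a fitted value depends on the prior count, so they are listed in no order of size. Those higher were TAL1, CD1B, CR2, PRSS21, NUDT11, CD1A, CD1E, ANTXR1, CD1D, RAG2, KIRREL, INA, RALGPS2 and RASAL1. CR2, the complement receptor of B cells, had 43.6 and 27.6 CPM in PF382 and no count in HH or TLOm1, at least 1125-fold higher (adjusted p = 0.045). ANTXR1, an anthrax toxin receptor, had 125 and 160 CPM in PF382, against 0 and 0.0497 in HH and 0.0813 and 0 in TLOm1. INA, a neuronal intermediate filament, had 57.8 and 45.1 CPM in PF382, with 1 count in HH and TLOm1 together. Of the 14 that were lower, 13 were TPRG1, GPR15, CCDC50, MET, COL4A6, PRKCDBP, SPOPL, TP63, CIITA, GOLIM4, FAM49A, KLHL9 and SEPT10. TP63, the p53 relative of epithelial stem cells, and TPRG1, which lies beside it on chromosome 3, were both among them. TP63 had 0.0436 and 0 CPM in PF382, against 379 and 562 in HH and 205 and 257 in TLOm1, and TPRG1 had no count in PF382, against 260 and 376 CPM in HH and 143 and 165 in TLOm1. GPR15, a receptor for homing to gut and skin, had no count in PF382, against 248 and 291 CPM in HH and 90.0 and 63.2 in TLOm1, and was at least 2175-fold lower.

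Markers of other cell types were mixed. Of 18 myeloid markers, 15 were under 1 CPM in both PF382 libraries, and their sum of 148 and 168 CPM included AIF1, a calcium-binding protein, at 143 and 163 CPM in PF382, against 0 and 0.0497 in HH and 0.203 and 0 in TLOm1 (adjusted p = 0.012). Of 18 B-cell markers, 13 were under 1 CPM in both PF382 libraries. Of the 9 tested, 3 were higher (CD79A, CR2 and POU2AF1, or 33.3% beside 8.84% of all tested genes) and 0 lower in edgeR, with a median log2 fold change of 5.02. At an unadjusted p under 0.05, 1 was lower, as were 2 with DESeq2 and 0 with limma-voom, and 0 to 2 were higher without 1 HH or TLOm1 library. CD79A had 10.5 and 11.6 CPM in PF382, against 0.0411 and 0.248 in HH and 0.488 and 0.231 in TLOm1, while MS4A1 and PAX5 were at most 0.0652 CPM in PF382. BLK, a B-cell kinase, stood out in HH, with 0 and 0 CPM in PF382, against 404 and 348 in HH and 1.22 and 2.13 in TLOm1. Of 7 tested epithelial markers, 2 were higher (28.6%, beside 8.84% of all tested genes) and 1 lower (14.3%, beside 8.32%). ESRP1 was higher, with 10.9 and 12.4 CPM in PF382, against 0.0411 and 0 in HH and 0.0406 and 0.231 in TLOm1 (adjusted p = 0.027). KRT18 was higher as well, with 2.49 and 1.89 CPM in PF382, against 0 and 0 in HH and 0.0813 and 0 in TLOm1 (adjusted p = 0.036). The lower one, the keratin KRT7, had 0.305 and 0.717 CPM in PF382, against 50.2 and 45.7 in HH and 31.5 and 35.7 in TLOm1 (adjusted p = 0.0085). CDH1, E-cadherin, had 0.131 and 0 CPM in PF382, against 0.370 and 0.497 in HH and 38.3 and 74.8 in TLOm1, and PDGFRB, a growth factor receptor of fibroblasts, had 0.175 and 0.0652 CPM in PF382, against 0.247 and 0.0994 in HH and 86.9 and 87.3 in TLOm1. Neither passed the test. Of 6 tested fibroblast and endothelial markers, edgeR called 0 higher and 0 lower, and DESeq2 called 2 and 1. PF382 lay above all 4 others in 3 of the 6 (DCN, THY1 and COL1A1) and below in 0, beside 27.7% and 24.9% of all tested genes. DCN had 5.15 and 4.95 CPM in PF382 and no count in HH or TLOm1. The part of these markers in the results above was not tested.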

How the data were processed

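RNA-seq counts of 6 untreated libraries were analysed (2 each of PF382, HH and TLOm1), and the 18 treated ones were left out. The deposited values are whole read counts per gene symbol, not normalized by the authors. Reference GRCh37.p2 and the tools limma, DESeq2 and STAR appear in the submitters' notes on processing, without roles. Which read counter, annotation and strand setting were used is not given in the sources used here. As the RNA, poly-A RNA and ribosome-depleted total RNA are both named in the labels, and which holds is unknown.

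The test was edgeR's quasi-likelihood F test (version 4.0.16, R 4.3.3, TMM scaling, robust fits, filterByExpr with a minimum count of 10 and a minimum total count of 15), with PF382 against HH and TLOm1 as 1 group. P-values were adjusted by Benjamini-Hochberg over 15501 genes, with a threshold of 0.05. SE was derived from the fold change and F. The library set was a block: deviations of same-set libraries from their line means correlated at 0.36 between PF382 and HH, 0.307 between PF382 and TLOm1 and 0.376 between HH and TLOm1. Whether the difference of PF382 from HH and TLOm1 changed with the set was tested as an interaction (0 genes called by edgeR, with 56 at an unadjusted p under 0.05), and the sets themselves were not compared. A permutation of 2 against 4 libraries cannot go below a one-sided p of 0.0667, so none was used. The labels do not say that libraries came from separate cultures, so how the libraries of 1 line vary may be technical. The fit counted the 4 HH and TLOm1 libraries as separate samples, though they come from 2 lines. Its spread holds the difference between those lines, and the p-values cover only how these 6 libraries vary. Alternatives used DESeq2 1.42.0, limma-voom 3.58.1, other scaling, filters, models and subsets of libraries.

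Genes named were the 14 largest increases and 14 largest decreases at a mean of at least 5 CPM in the higher group, up to 5 members of each list by adjusted p, and 4 lists in full (immature thymocyte, receptor complex, leukemia oncogenes and 9p21). Unnamed open reading frames and noncoding genes were passed over, and FLJ and KIAA identifiers were added to these after a first look. LCK, ZAP70, NOTCH1, NOTCH3, HES1, DTX1, TCF7, CCR4, IL2RA, JAK3, BLK, HLA-DRA, HLA-DRB1, CD74, RFX5, RFXAP, RFXANK, NFKBIA, LGALS1, KIT, CXCR4, B2M and the genes of neighbour runs were chosen after their values were seen, and so was the promoter window. Members and lists were chosen with earlier results of these data known. With 1 to 3 counts in a group a ratio with an exact 95% counting interval is given, and with none a bound at 3 counts over the group. Promoter sequences and gene order are from RefSeq. Some genes that the rule or the lists hold are counted but not reported here.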

Additional observations from a re-analysis of the deposited data

Results flagged for a closer look

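In 7 of 185 named genes with over 3 counts in at least 1 HH or TLOm1 library, the highest or lowest of those 4 libraries lay far from the other 3, by the gap over the whole range on the log2(CPM + 1) scale. Chance would mark about 1 in 20 groups of like samples, a rate that does not allow for the 4 libraries coming from 2 lines. The limit of more than 3 counts was set after the values were seen and left out genes marked by a few counts. DTX1 and CD1C had a ratio of 1.0 each, with counts only in the OLC library of TLOm1. MKI67 had 0.952, with the OC library of TLOm1 low at 527 CPM, and POU2AF1 had 0.926. STAT3 had 0.876, with the OC library of TLOm1 high at 51.6 CPM. RFXANK had 0.864, with the OLC library of HH at 51.3 CPM, and ITGB2 had 0.861, with the OLC library of TLOm1 at 0.650 CPM. Of the 7 genes, 6 were called higher in PF382, with both PF382 libraries above all 4 others, and RFXANK was not called. The reason for any of these single values was not tested.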

How the results depend on the processing

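The counts of called genes (1370 higher, 1289 lower) changed little with DESeq2 size factors (1375 and 1292) or without the filter (1243 and 1176). Without the replicate block, that is, without pairing by library set, they were 1974 and 1793. DESeq2 gave 2688 and 3184, limma-voom 2115 and 1307, and the 3 lines as separate groups 5564 and 5007. Without HH they were 5197 and 4902, and without TLOm1 5319 and 4811. In the OLC set only and the OC set only, with 1 PF382 library each that is assumed to vary like the others, 0 genes passed either way (1694 and 1684 at an unadjusted p under 0.05). Leaving out 1 library gave 0 to 527 higher and 0 to 652 lower, with 0 when either PF382 library was out. Of the 2659 called genes, DESeq2 also called 2645, limma-voom 2527, the fit without the block 2572, and fits without 1 HH or TLOm1 library 935 to 1167, all in the same direction. The interaction, a change of the PF382 difference with the library set, was called in 1 gene with DESeq2 and in 0 with edgeR. Fewer libraries, and HH and TLOm1 no longer pooled as 1 group, are part of these alternatives; other causes were not tested.

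Of the named genes, 7 changed direction under some alternative, and none of them passed in the comparison itself. On the log2 scale, AQP3 was 0.138 with library totals, 1.14 with limma-voom, 1.16 with 3 lines, 3.32 without TLOm1, 0.377 in the OLC set only and −0.503 to 1.67 without 1 library. CD5 was 1.75 with limma-voom, 1.69 with 3 lines, 6.5 without HH and −2.53 to 1.87 without 1 library. GIMAP6 was 2.54 with limma-voom, 3.61 with 3 lines, 9.61 without TLOm1 and −1.86 to 2.13 without 1 library. GP1BA was 0.0465 with library totals, 0.186 without HH, 0.251 in the OC set only and −0.585 to 0.253 without 1 library. MYC was −0.355 without TLOm1 and −0.0597 to 0.607 without 1 library, and TOX was −0.0946 without TLOm1. TOX2 was 0.651 with limma-voom, 0.711 with 3 lines, 2.52 without TLOm1, 0.291 in the OLC set only and −0.903 to 1.03 without 1 library. The cause was not tested. Depth limits genes with few counts in a group, whose fold is a bound or a wide interval.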

Other observations

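BCL2 family genes had 2 of 17 tested members higher and 0 lower in PF382 by edgeR (2 lower at an unadjusted p under 0.05, 3 with DESeq2 and 0 with limma-voom), with a median log2 fold change of −0.06. The 2 are 11.8% of the list, beside 8.84% of all tested genes, and became 1 to 2 without 1 HH or TLOm1 library. Both were cell death genes of the BH3-only class. BCL2L11, which encodes BIM, had 53.5 and 70.6 CPM in PF382, against 0 and 0 in HH and 0.203 and 0.0463 in TLOm1 (adjusted p = 0.018). BID had 59.6 and 54.8 CPM in PF382, against 0.658 and 0.447 in HH and 0.813 and 0.602 in TLOm1 (log2 fold change 6.33 ± 0.27 SE, adjusted p = 0.0045). Other genes of that class went the other way. BMF had 9.99 and 4.63 CPM in PF382, against 24.1 and 32.0 in HH and 34.5 and 56.6 in TLOm1. BBC3 had 0.655 and 0.0652 CPM in PF382, against 2.43 and 3.03 in HH and 4.35 and 5.41 in TLOm1. On the TMM scale BMF, BBC3 and BAD lay below every HH and TLOm1 library, and none of them passed. Interferon-stimulated genes were called higher in 4 and lower in 4 of 40 tested, and in 1 to 2 and 4 to 5 without 1 HH or TLOm1 library. With no library left out, the share of this list called each way was close to that of all tested genes, 8.84% higher and 8.32% lower. MX1, an antiviral GTPase, had 21.8 and 32.0 CPM in PF382, against 0 and 0 in HH and 0.0406 and 0.0926 in TLOm1 (adjusted p = 0.016), while the RNA sensor IFIH1 was lower, with 16.3 and 16.7 CPM in PF382, against 72.3 and 86.5 in HH and 62.2 and 69.6 in TLOm1 (adjusted p = 0.0090).

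Nucleoside metabolism genes, which include the kinases that activate azacitidine and decitabine, were called higher in 5 and lower in 5 of 30 tested, and in 2 to 3 and 0 to 4 without 1 HH or TLOm1 library. With all 6 libraries that is 16.7% each way, beside 8.84% and 8.32% of all tested genes. The median log2 fold change of the list was −0.30. DCK, the kinase of deoxycytidine and decitabine, had 169 and 203 CPM in PF382, against 31.5 and 49.4 in HH and 27.6 and 33.9 in TLOm1 (log2 fold change 2.22 ± 0.22 SE, adjusted p = 0.010). UCK1, a kinase of uridine and cytidine, had 61.3 and 54.0 CPM in PF382, against 26.2 and 20.1 in HH and 25.7 and 22.4 in TLOm1 (log2 fold change 1.11 ± 0.15 SE, adjusted p = 0.017). DPP4, the surface peptidase CD26 that binds adenosine deaminase, had 9.08 and 9.19 CPM in PF382, against 0.123 and 0.0994 in HH and 0.0406 and 0.0463 in TLOm1 (adjusted p = 0.0099). TK1 was among the lower genes, with 38.0 and 25.0 CPM in PF382, against 104 and 71.4 in HH and 137 and 111 in TLOm1 (log2 fold change −1.94 ± 0.27 SE, adjusted p = 0.018). The tumor suppressor CADM1, an adhesion protein, had 0.175 and 0 CPM in PF382, against 378 and 438 in HH and 296 and 373 in TLOm1 (adjusted p = 0.0084).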
